A study of Mus musculus with 2 samples.

Results

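The genes described here are those annotated to intracellular protein transport, protein transport or the Golgi apparatus among the named clones of a comparison of Bclaf1 knockout lung with wild-type lung. A clone was a member if the authors' annotation gave it a gene symbol and at least 1 of these 3 gene ontology terms. Clones with any of 10 other terms were left out, namely the terms for secreted and matrix proteins, transcription factors, cell cycle and division, protein kinases and phosphorylation, mitochondria and translation. This gave 86 clones of 79 genes, out of 2597 clones of 2327 genes with a symbol and 3509 clones that the authors listed. The authors listed these clones as up-regulated or down-regulated on the same arrays, so every member had been selected for a difference before it could be named. Which side a member lies on and how large its ratio is are therefore given as a description.

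Newly made secretory and membrane proteins enter the endoplasmic reticulum (ER), leave it in coated vesicles and pass through the Golgi apparatus, where sugars are trimmed and added, before they are sorted to the cell surface, to endosomes or to lysosomes. Coats and adaptors select the cargo, small GTPases of the Rab and ARF families mark the membranes, tethers catch the vesicles and SNARE proteins fuse them, while importins and exportins carry proteins through the nuclear pore. In the lung, alveolar type II cells depend on this route to make and store surfactant, and airway cells depend on it to secrete mucus.

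Each of the 2 arrays, printed with mouse cDNA clones, received knockout and wild-type lung RNA together, and a clone's value on an array is the ratio of these channels. On both arrays the Bclaf1 knockout sample carried Cy3 and the wild-type sample Cy5. The sources used here do not give the kind of mutation, the strain or the sex of the mice, and the stage is embryonic day 19 in the sample labels but postnatal day 1 in the series text. The labels number the RNA pairs without saying whether they came from separate animals, so every SD below measures the spread between 2 arrays, which may be technical.

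The value table does not say which channel is the numerator. A member is said here to lie on the positive or the negative side of the log2 ratio, where the positive side holds the clones of the authors' up-regulated list, and a positive ratio means either higher in knockout or higher in wild-type lung. Dye and genotype cannot be told apart, and neither can the sex of the mice, since sex-linked RNAs differed between the channels (given below with the chromosomes). The clone of Bclaf1, which encodes a nuclear protein of RNA processing and apoptosis control, lay at 0.40 on array 1 and 0.41 on array 2; the position of this clone relative to the mutated part of the gene is not stated, so it does not check the labels. Over the 22532 clones measured on array 1 and array 2, log2 ratios had medians of 0.0068 (array 1) and 0.0041 (array 2) and SDs of 0.294 and 0.430, and Pearson's r between the arrays was 0.357, a description over clones that share arrays and dyes. In bulk tissue, fewer cells of a type and less RNA per cell cannot be told apart. None of the 8 alveolar type II, 5 alveolar type I and 3 airway marker genes was among the named clones, and ratios give no levels, so the lung label was not checked. Markers of endothelium, leukocytes, red cells and liver were not named either, and 1 of 4 of striated muscle was, Myh6, with a mean of -0.37.

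The members split almost evenly, with 40 genes on the positive side (50.6%) and 39 on the negative side. This is near the share of positive means among the 2240 other named genes (48.2%) and among all clones tested (52.0%). The side counts by role below cover few genes each and are a description to be set beside these shares. All 79 had the same sign on both arrays, where 35.7% of all clones tested were positive on both and 33.9% negative on both; the authors had selected the members on these arrays, so nothing is read from this agreement. The median log2 ratio was 0.32 on the positive side and -0.31 on the negative side, close to the 0.35 and -0.32 of the 2240 other named genes and further from 0 than the 0.18 and -0.15 of all clones. The median over all 79 was 0.067, against -0.11 over the other named genes and 0.012 over all clones. That value is the mean of Stip1, whose clones disagree, and describes no typical member. In limma's test of each clone's mean ratio against 0, 0 member clones passed a Benjamini-Hochberg adjusted threshold of 0.05, as did 0% of all clones, and member adjusted p-values ran from 0.349 to 0.377. At an unadjusted limma p under 0.05 there were 23 of 44 positive and 26 of 42 negative member clones. Of all clones, 8% passed with a positive and 5.92% with a negative mean. The members came from the authors' lists on these same arrays, so a higher share was set in advance and nothing is read from it. The ordinary one-sample test also called 0 clones after adjustment. With 2 arrays an exact sign test of 1 clone cannot go below a p of 0.5.

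**Figure D1:**
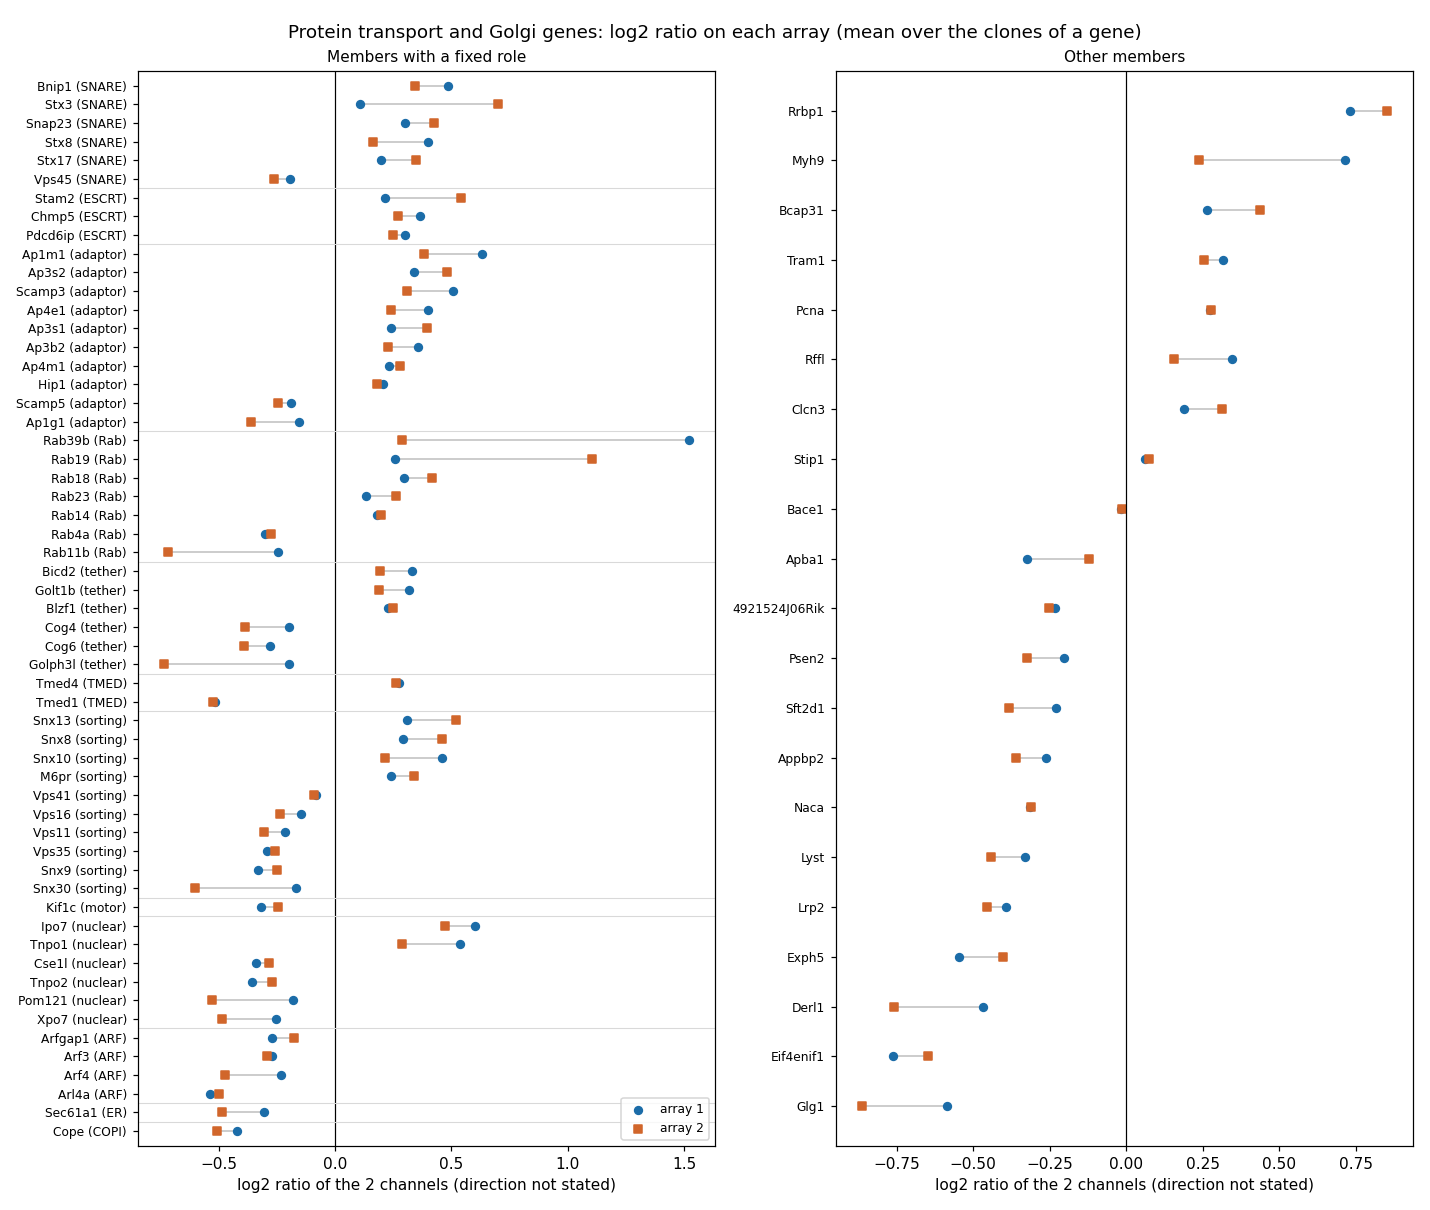
Log2 ratio of 78 of the 79 member genes on array 1 (circles) and array 2 (squares), as the mean over the clones of a gene, grouped by role (left) or without a fixed role (right). All genes drawn keep 1 side on both arrays. The 4 members of the ARF group lie on the negative side and the 3 ESCRT members on the positive side. ARF and ARL genes that are not members, not drawn, lay on both sides, and a further clone listed as Stam2 was negative.

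A difference past 1.5-fold on each array, with 1 sign, was seen for 3 genes. On the positive side this was 1 of 79, where 0.506% of all clones passed, and on the negative side 2, where 0.311% passed. The authors had selected the members on these arrays, and a member's value averages its clones. Nothing is therefore read from the member counts beside the shares of all clones, here or at the other cutoffs. Rrbp1, the ribosome-binding protein of the rough ER membrane, had log2 ratios of 0.73 on array 1 and 0.85 on array 2 (mean 0.79 ± 0.087, SD, n = 2, a 1.73-fold difference between the channels). Glg1, a sialoglycoprotein of the Golgi membrane that binds fibroblast growth factors, had -0.59 and -0.86 (mean -0.72 ± 0.20), and Eif4enif1, which carries the cap-binding protein eIF4E into the nucleus, had -0.76 and -0.65 (mean -0.71 ± 0.079). These 3 were picked because both arrays passed, so nothing is read from how close their arrays lay. The ratios of Rrbp1 had the opposite sign to those of Glg1 and Eif4enif1 on each array. Past 1.3-fold were 4 positive genes (2.12% of all clones), among them Ipo7 and Ap1m1 beside Rrbp1, and 8 negative genes (1.83% of all clones), with Derl1, Tmed1, Arl4a, Cope, Exph5 and Lrp2 beside Glg1 and Eif4enif1. Past 2-fold were 0 members, beside 0.16% of all clones on the positive side and 0.00888% on the negative side.

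The sequences before the start of these 3 genes are shown since they had the members' clearest differences. They are the 250 bases before the RefSeq start in assembly GRCm38.p6, with CCAAT (read on either strand) in capitals; where RefSeq gave several starts, the first listed is shown. They lie at chr2:144011264-144011513 (minus strand) for Rrbp1, chr8:111259211-111259460 (minus strand) for Glg1 and chr11:3202103-3202352 (plus strand) for Eif4enif1.
Rrbp1: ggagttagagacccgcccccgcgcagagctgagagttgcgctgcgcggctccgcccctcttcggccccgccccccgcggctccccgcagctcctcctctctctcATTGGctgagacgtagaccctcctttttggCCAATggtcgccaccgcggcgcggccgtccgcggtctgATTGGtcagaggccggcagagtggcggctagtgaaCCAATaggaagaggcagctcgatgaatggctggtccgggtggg
Glg1: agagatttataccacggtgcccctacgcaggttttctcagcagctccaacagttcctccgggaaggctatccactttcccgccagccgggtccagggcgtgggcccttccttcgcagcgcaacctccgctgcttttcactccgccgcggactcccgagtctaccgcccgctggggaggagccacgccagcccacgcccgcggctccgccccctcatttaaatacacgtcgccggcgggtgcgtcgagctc
Eif4enif1: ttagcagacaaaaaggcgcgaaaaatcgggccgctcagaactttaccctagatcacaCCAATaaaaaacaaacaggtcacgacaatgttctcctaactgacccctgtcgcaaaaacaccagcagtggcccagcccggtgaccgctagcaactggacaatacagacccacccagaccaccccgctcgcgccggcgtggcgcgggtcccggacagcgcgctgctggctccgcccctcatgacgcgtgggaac
Rrbp1 held 4 matches, Eif4enif1 1 and Glg1 0. Over the 63 members with a RefSeq window, 29 held CCAAT (46.0%), with 15 of 33 on the positive side (45.5%) and 14 of 30 on the negative side (46.7%), beside 37.5% of all 27025 genes. The letters CACGTG, the core of the element bound by the lysosomal regulator TFEB, were in 8 of the 63 (12.7%), 5 on the positive side and 3 on the negative side, beside 6.86% of all genes. The unfolded protein response element TGACGTGG was in 0 members and in 0.603%. All were read on both strands, a gene counted if any of its windows held the letters, and a match is a description of the letters only.

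**Figure D2:**
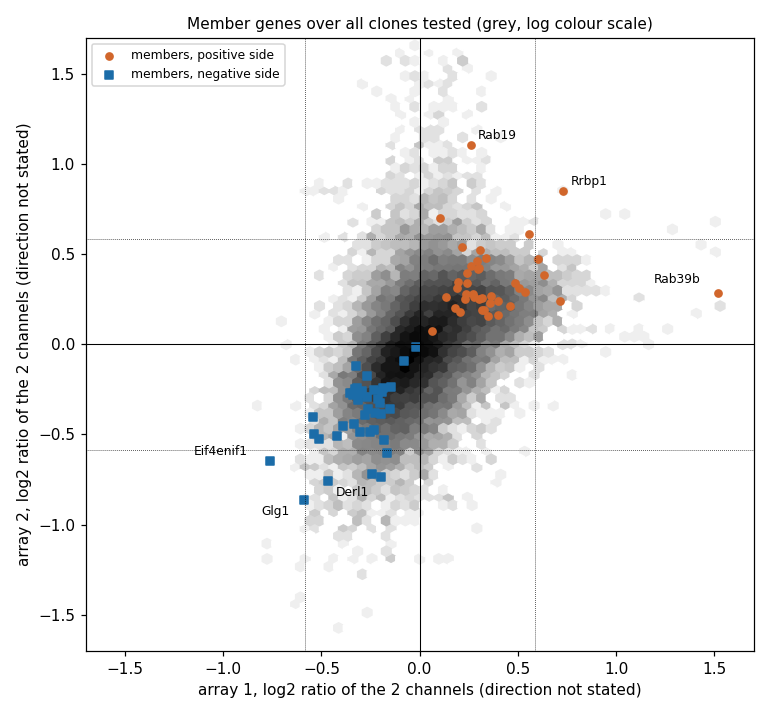
Log2 ratio on array 1 (x axis) against array 2 (y axis) for the 79 member genes over all tested clones in grey. Dotted lines mark 1.5-fold, and 288 clones beyond 1.7 on either axis are not drawn; Rrbp1, Glg1 and Eif4enif1 lie past the lines on both arrays, whereas Rab39b and Rab19 lie past the line on 1 array only.

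At the ER, where secretory proteins are made and checked, members lay on both sides. Derl1, which takes part in pulling misfolded proteins out of the ER for degradation, had -0.47 on array 1 and -0.76 on array 2 (mean -0.61 ± 0.20, SD, n = 2). Sec61a1, the pore of the translocon, had -0.30 and -0.48 (mean -0.39 ± 0.13). Naca, of the complex that shields newly made peptides from the wrong membrane, had -0.31 on both arrays (mean -0.31 ± 0.0025). With the median of all clones of neighbouring number (a block, described with clone number) taken off on each array, Naca was at -0.20. On the positive side were Rrbp1 above, Tram1, a neighbour of the translocon, and Bcap31, a cargo receptor of the ER membrane.

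Between the ER and the Golgi, the cargo receptors of the TMED (p24) family split: Tmed1 had -0.51 on array 1 and -0.52 on array 2 (mean -0.52 ± 0.0071), and Tmed4 had 0.28 and 0.26 (mean 0.27 ± 0.011). The arrays were within 0.02 of each other for both receptors. Cope, the epsilon subunit of the COPI coat that returns vesicles from the Golgi, had -0.42 and -0.51 (mean -0.46 ± 0.062). Subtracting block medians left Tmed1 at -0.43 on array 1 and -0.34 on array 2, Tmed4 at 0.27 and 0.28, and Cope at a mean of -0.33.

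The 4 members of the ARF group, small GTPases that recruit COPI and other coats and a regulator of them, all lay on the negative side. Arl4a, an ARF-like GTPase, had -0.54 on array 1 and -0.50 on array 2 (mean -0.52 ± 0.027). Arf4, which acts at the Golgi, had -0.23 and -0.47 as the mean of 2 clones, and Arf3, of the same family, had -0.27 and -0.29. Arfgap1, which switches ARF off, had -0.22 as its mean, the smallest of the 4. With block medians subtracted, Arf3 was at -0.14 in place of -0.28.

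Tethers and matrix proteins of the Golgi were 3 positive and 3 negative. Cog4 and Cog6, subunits of the COG complex that tethers vesicles within the Golgi, had means of -0.29 ± 0.13 and -0.33 ± 0.079 (SD, n = 2). Golph3l, a relative of the Golgi phosphoprotein that binds phosphatidylinositol 4-phosphate, had -0.20 on array 1 and -0.73 on array 2, so array 2 set most of its mean of -0.47 ± 0.38. The positive ones, Bicd2, an adaptor of the dynein motor, Golt1b and Blzf1, a partner of a Golgi stacking protein, had means of 0.24 to 0.26. With block medians subtracted these were smaller, at 0.015 for Bicd2, 0.085 for Golt1b and 0.11 for Blzf1, and Bicd2 was at -0.0077 on array 1 and 0.039 on array 2.

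Adaptors and endocytic proteins were 8 positive and 2 negative of 10, with a median of 0.31. Ap1m1, the medium chain of the AP-1 adaptor between the Golgi and endosomes, had 0.63 on array 1 and 0.38 on array 2 (mean 0.51 ± 0.18, SD, n = 2), while the large chain of the same complex, Ap1g1, lay on the negative side. Ap3s2, a small chain of the AP-3 adaptor for lysosome-related organelles, had 0.34 and 0.48 (mean 0.41 ± 0.10), and Scamp3, a carrier membrane protein of the recycling route, had 0.51 and 0.31 (mean 0.41 ± 0.14). The other AP-3 members, Ap3s1 and Ap3b2, and the AP-4 members Ap4e1 and Ap4m1 had means of 0.26 to 0.32. All 3 AP-3 and both AP-4 members were thus on the positive side, and the subunits of AP-1 were on opposite sides. With block medians subtracted, Ap1m1, Ap3s2 and Scamp3 were at 0.26, 0.24 and 0.24.

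SNARE proteins and their partners, which fuse vesicles with their target, were 5 positive and 1 negative. Bnip1, an ER SNARE that binds Bcl2 relatives, had 0.48 on array 1 and 0.34 on array 2 (mean 0.41 ± 0.10). Snap23, a SNARE of the plasma membrane, had 0.30 and 0.43 over 2 clones (mean 0.36 ± 0.089), and was at 0.24 with block medians subtracted. Stx3, a syntaxin of the apical membrane, had 0.11 and 0.70 (mean 0.40 ± 0.42), so its SD was larger than its mean. Stx8 and Stx17, syntaxins of late endosomes and of autophagosomes, had means of 0.28 and 0.27, of which Stx8 was at 0.13 with block medians subtracted, and Vps45, which binds syntaxins, lay on the negative side.

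Rab GTPases, which give membranes their identity, were 5 positive and 2 negative of 7. The highest mean was that of Rab39b, a Rab with a known role in neurons, with 1.52 on array 1 but 0.29 on array 2 (mean 0.90 ± 0.87, SD, n = 2), and Rab19 had the reverse order, 0.26 and 1.10 (mean 0.68 ± 0.60). Each of these means was set mostly by 1 array. Rab18, of lipid droplets and the ER, had 0.30 and 0.42 (mean 0.36 ± 0.085). Rab11b, of recycling endosomes, had -0.24 and -0.72 (mean -0.48 ± 0.34), and Rab4a, also of recycling endosomes, lay on the negative side as well. Rab14 and Rab23 had means of 0.19 and 0.20, and Rab23 was at 0.067 with block medians subtracted.

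Endosomal sorting genes were 4 positive and 6 negative of 10. Sorting nexins, which bind endosomal lipids, lay on both sides: Snx13 had 0.31 on array 1 and 0.52 on array 2 (mean 0.41 ± 0.15), Snx8 had 0.29 and 0.46 (mean 0.38 ± 0.12), and Snx30 had -0.17 and -0.60 (mean -0.38 ± 0.31, and -0.22 with block medians subtracted). Snx10 was also positive and Snx9 negative, and Snx9 was at -0.44 with block medians subtracted in place of -0.29. The subunits of the HOPS and CORVET tethers, Vps11, Vps16 and Vps41, and the retromer subunit Vps35 had negative means of -0.27 to -0.087; that of Vps41 averages 2 clones on opposite sides, and that of Vps35 was -0.16 with block medians subtracted in place of -0.27. The ESCRT members, which sort ubiquitinated receptors into multivesicular bodies, were all 3 positive: Stam2 had 0.22 and 0.54, Chmp5 0.36 and 0.27, and Pdcd6ip (Alix) 0.30 and 0.25 as the mean of 2 clones. All member clones of these 3 genes lay in blocks 1 to 10, where 73.2% of all clones were positive. With block medians subtracted, Stam2, Chmp5 and Pdcd6ip were at 0.13, 0.19 and 0.13, and the arrays then differed in sign for Stam2, with -0.12 on array 1 and 0.39 on array 2. A further clone listed as Stam2, under a gene ID that the RefSeq table does not hold and with none of the terms, was no member and had -0.22 and -0.26.

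Transport through the nuclear pore had 2 positive and 4 negative members of 6. Ipo7, an importin of ribosomal proteins and histones, had 0.60 on array 1 and 0.47 on array 2 (mean 0.54 ± 0.092, SD, n = 2), and 0.35 with block medians subtracted. Tnpo1, the import receptor of several RNA-binding proteins, had 0.54 and 0.29 (mean 0.41 ± 0.18), whereas its close relative Tnpo2 lay on the negative side with a mean of -0.31, and -0.17 with block medians subtracted. Cse1l, which returns importin alpha to the cytoplasm, had -0.34 and -0.28 (mean -0.31 ± 0.041). Xpo7, an exportin, had -0.25 and -0.49 (mean -0.37 ± 0.17), and the pore anchor Pom121 had a mean of -0.36, and -0.22 with block medians subtracted.

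Of the 22 members without a fixed role, 9 were positive and 13 negative. On the negative side, Exph5, an effector of the secretory Rab27, had -0.55 on array 1 and -0.40 on array 2 (mean -0.47 ± 0.10), Lrp2, the endocytic receptor megalin, had -0.39 and -0.45 (mean -0.42 ± 0.045), and Lyst, the lysosomal regulator mutated in beige mice, had -0.33 and -0.44 (mean -0.39 ± 0.077). These 3 genes were named by the smaller of their absolute ratios, so nothing is read from how close their arrays lay. The only gene given the motor role was Kif1c, a kinesin of Golgi to ER transport, with -0.32 and -0.24 (mean -0.28 ± 0.054). The annotation also brings in genes best known for other work, such as Pcna, the sliding clamp of DNA replication, and Myh9, the heavy chain of a non-muscle myosin motor, both positive, and Psen2, a presenilin, and Appbp2, both negative; 4921524J06Rik, now named Ston1 and coding for an endocytic adaptor, was negative.

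Of the members, 7 had 2 clones, and these show how far clones of 1 gene can differ on the same arrays. For 4 genes, Arf4, Arfgap1, Pdcd6ip and Snap23, both clones lay on the same side. For the other 3 the clones lay on opposite sides, each on both arrays. Bace1, the protease that cuts the amyloid precursor protein, had 0.22 on array 1 and 0.31 on array 2 for 1 clone and -0.26 and -0.34 for the other. Stip1, a co-chaperone of Hsp70 and Hsp90, had 0.34 and 0.38 for 1 clone against -0.22 and -0.24 for the other. Vps41 had -0.41 and -0.43 against 0.24 and 0.25. Averaging them left gene means near 0, of -0.015 for Bace1, 0.067 for Stip1 and -0.087 for Vps41, although each clone's own arrays were within 0.09 of each other. The other 72 members rest on 1 member clone each.

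**Figure D3:**
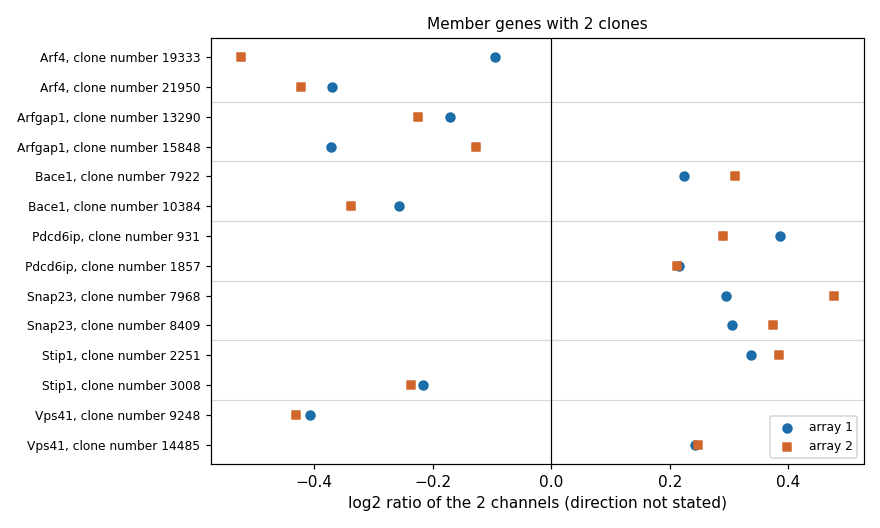
Log2 ratio of each clone of the 7 member genes with 2 clones, on array 1 (circles) and array 2 (squares). The clones of Bace1, Stip1 and Vps41 lie on opposite sides of 0 on both arrays, and those of Arf4, Arfgap1, Pdcd6ip and Snap23 on the same side.

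The side of a member moved with the number in the identifier of its clone. The sources used here do not give the place of a clone on the slide, so this number is not known to be a position. The clone numbers were cut into 59 blocks of equal length. Of 27 member clones in blocks 1 to 10, 21 were positive and 6 negative, and of 21 in blocks 30 to 41, 4 were positive and 17 negative. Blocks 11 to 29 held 14 positive and 9 negative member clones, and blocks 42 to 59 held 5 and 10. Clones of all genes leaned the same way: 73.2% of all 3831 clones in blocks 1 to 10 were positive (median 0.16), against 35.7% of the 4598 clones in blocks 30 to 41 (median -0.074). These ranges of blocks were chosen after the block medians had been seen. With the median of its block subtracted from each clone on each array, 78 of 79 genes kept the sign of their mean, and Stip1 changed it. The arrays then had the same sign for 76 of the 79, the exceptions being Stam2, Bicd2 and Vps41. The size of the ratio moved more: of the 76 genes whose clones lay on 1 side, 31 were smaller by over 1.5 times, 19 positive and 12 negative, and 2 were larger, Rffl and Snx9. Glg1, in block 2, where the block medians were 0.34 and 0.15, was at -0.97 with them subtracted, and Rrbp1 was at 0.61, Eif4enif1 at -0.69 and Derl1 at -0.73. On array 1 Rrbp1 was then at 0.49, short of 1.5-fold, and Derl1 was past it on both arrays, at -0.60 and -0.86. What part the clone number, or whatever it stands for, has in any single ratio was not tested.

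**Figure D4:**
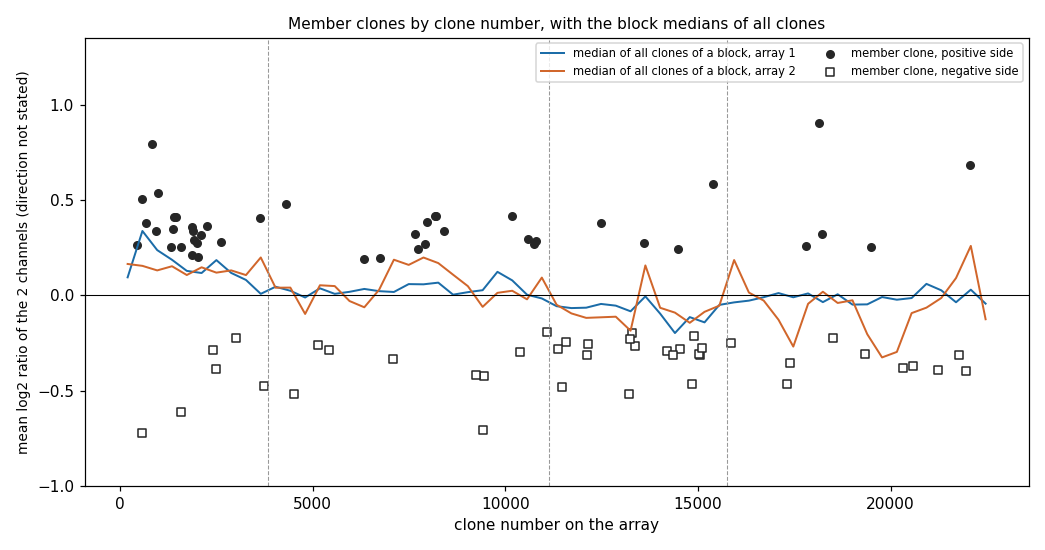
Mean log2 ratio of each of the 86 member clones (y axis) by clone number (x axis), with positive clones as filled circles and negative clones as open squares; the lines give the median of all clones in each block on array 1 and array 2. Dashed lines mark the ends of blocks 10, 29 and 41; members in blocks 1 to 10 are mostly positive and those in blocks 30 to 41 mostly negative, as the medians of all clones are.

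The spread between arrays differed among members. The SD of the arrays had a median of 0.089, was under 0.1 for 47 of 79 genes and was over the absolute mean for 1 (Stx3), and the widest were those of Rab39b and Rab19. Array 2 had the larger absolute ratio for 21 of the 40 positive and 26 of the 39 negative genes. In the authors' deposited tables the member clones had fold changes of 1.14 to 2.21 (median 1.25) among 44 up-regulated clones and of 0.59 to 0.88 (median 0.80) among 42 down-regulated clones, with p-values of 0.01 to 0.05; what these p-values test is not stated in the files. The authors' deposited table gave Rab39b its highest member fold change, 2.21, with a p of 0.05.

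By annotation, 63 genes had a transport term but not the Golgi term, and 33 of these were positive and 30 negative (median 0.20). The 11 genes with the Golgi term alone were 5 positive and 6 negative (median -0.015), and the 5 with both were 2 and 3 (median -0.28). Chromosome 2 held the most members, 10, with 6 positive and 4 negative. On chromosome 8 lay 9 members, 2 positive and 7 negative, on chromosome 9 lay 6, 1 and 5, on chromosome 17 lay 5, 1 and 4, and on chromosome 7 lay 4, all positive. The sides of all named genes were not counted by chromosome, so nothing is read from these counts. The X chromosome held Bcap31 and Rab39b, both positive. Xist, the RNA of the inactive X chromosome, had 2.69 on array 1 and 2.15 on array 2, and the Y-linked Ddx3y had -1.12 and -0.61. The clones of Eif2s3y, also Y-linked, had -0.44 and -0.94, and -0.34 and -0.040. The channels may thus differ in the sex of the mice on both arrays. For every member, X-linked or not, sex then cannot be told apart from genotype and dye, and its part in the ratios was not tested.

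Outside the membership rule, 99 further named genes belong to the same machinery by their symbols, after 17 were left out by hand because their symbols matched a pattern but not the role. Of these, 57 were positive and 42 negative, with a median of 0.19. Golgi glycosylation and sulfation enzymes were 13 positive and 9 negative of 22, COPII and ER exit genes 3 and 4 of 7, Rab regulators 6 and 5 of 11, adaptors and clathrin partners 6 and 3 of 9, tethers 4 and 4 of 8, and nuclear transport genes 5 and 0 of 5. ARF and ARL genes and their regulators, all negative among the members, were 4 positive and 3 negative of 7 outside the rule. The authors had selected these genes on the same arrays as well, and 0 passed the limma test.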

How the data were processed

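Two-colour ratios of Bclaf1 knockout and wild-type lung RNA on 2 spotted arrays were used. Extraction used TRI reagent and scanning an Agilent scanner, per the labels' protocols. The deposited values were taken as log2 ratios, since regressing their mean on log2 fold changes from the authors' lists gave a slope of 0.974; the sources used here do not give the background correction or normalization, and medians near 0 were taken as centring by the authors. Per the file headers, the authors' lists hold p-values and linear fold changes, and served for names and annotation. No intensities or spot flags were used, so dim spots were not filtered.

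Of 22656 clones, the 22532 with both values were tested as deposited with limma 3.58.1 in R 4.3.3 (intercept, eBayes, two-sided, Benjamini-Hochberg over all clones, threshold 0.05). The fit was tested on simulated data with changes larger than the mean of any member, so this does not show whether changes of the members' size would be called. Ratios of clones with the same symbol were averaged. All 79 symbols matched a RefSeq gene (GRCm38.p6) by gene ID, and 1 was renamed. The text gives values for Bclaf1, for 12 genes per side by the smaller absolute ratio, for the 3 largest of each role and for genes whose clones differ in sign; others appear by range or singly, chosen after their values were seen. The values of 1 member named by this rule are left out. Members, roles and lists were chosen with earlier results of these data known. Only 2 arrays limit the precision. Alternatives were other centring, scaling and quantile normalization, block medians, other moderation, missing values, thresholds, clone choice and membership.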

Additional observations from a re-analysis of the deposited data

How the results depend on the processing

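No clone was called by limma under any alternative run, among them robust moderation, the ordinary one-sample test, clones measured on at least 1 array and a threshold of 0.1, with a lowest adjusted p of 0.135 to 0.369. The counts past 1.5-fold, 1 positive and 2 negative as reported, were 4 and 8 at 1.3-fold and 0 and 0 at 2-fold. Subtracting block medians gave 1 positive and 3 negative, but not the same genes. Derl1 then passed as well, and Rrbp1, at 0.49 on array 1, did not, so the positive gene was another member. The negative count was 1 at the same median absolute deviation. It was also 1 over the 68 genes with a transport term, with or without the Golgi term. Over the 16 genes with the Golgi term, with or without a transport term, the counts were 0 positive and 1 negative. Leaving out an array gave 4 to 5 positive and 2 to 6 negative genes, since only 1 array then had to pass. The median of the members, 0.067 as reported, was -0.0056 with block medians subtracted. It was 0.19 with the clone of the largest absolute mean per gene and 0.19 without genes whose clones differ in sign. Over the same 16 genes with the Golgi term it was -0.14, and over the same 68 with a transport term 0.19. With the excluded terms allowed it was -0.20. The members lie in 2 groups either side of 0, so their median shifts with few genes. Of the 43 genes named by the rule, 42 kept their sign under every scaling, block-median and single-array alternative. Stip1 was at -0.060 with block medians subtracted. Block subtraction moved 24 of the 43, Stip1 among them, by more than the SD of the arrays, against 2 for centring, 3 for equal deviations and 7 for quantile normalization. No paired analysis was possible because each array gives 1 ratio of knockout and wild type, so no replicate block can be added; the reported test of these ratios against 0 is already made within arrays.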

Other observations

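The excluded terms removed 13 genes with a transport or Golgi term, of which 2 were positive and 11 negative (median -0.29). Of these 13, Kdelr1 and Ap2m1 are also among the 99 genes of the machinery outside the rule. Mapre1, a protein of growing microtubule ends, had -0.43 on array 1 and -0.85 on array 2, and Slc30a5, a zinc transporter of the secretory pathway, had -0.32 and -0.76. Sgpp1, a sphingosine-1-phosphate phosphatase of the ER, had -0.45 and -0.48, and Kdelr1, the receptor that returns ER proteins from the Golgi, had -0.20 and -0.37. The positive ones were Smpd3, a neutral sphingomyelinase, with 0.33 and 0.22, and Ap2m1, the medium chain of the AP-2 adaptor of clathrin, with 0.20 and 0.13. The genes named here were chosen once their values were known.

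Among the genes of the machinery outside the rule, Stxbp4, a syntaxin-binding protein, had the highest mean, with 3.04 on array 1 and 1.04 on array 2. Trip11, a golgin, had 1.19 and 0.54, and Tbc1d9, a Rab GTPase-activating protein by its domain, had 0.93 and 0.73. Tulp3, a trafficking protein of cilia, had the lowest, with -0.93 and -2.36. The same holds for these.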
